A study of Mus musculus with 6 samples.

Results

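Long intergenic noncoding RNAs (lincRNAs) were described in Kupffer cells, macrophages that reside in the liver, with and without the receptor Trem2. The lincRNAs are the genes that carry the biotype lincRNA in the count table and a summed count of 200 or more over the 6 libraries, which holds for 130 of 5559 lincRNA genes, in a table of 54532 genes. Cells had been sorted from livers of male mice, and 3 libraries came from Trem2-deficient mice (Trem2_KO, genotype Trem2-/-) while 3 came from their wild-type littermates (WT). Mice of both genotypes were 8 weeks old when a high fat diet began, and the diet lasted 8 weeks. TREM2 is a macrophage receptor that senses lipids. The labels give neither the deleted part of Trem2 nor the number of mice behind a library, so each p-value measures only how far these samples spread, and that spread may be technical. The lincRNAs were chosen by their summed read count over both genotypes, and the contrast between genotypes was not used to choose them. A low-count lincRNA can still reach the sum mainly through the genotype where it is higher.

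A lincRNA is a transcript longer than a small RNA that lies between protein-coding genes and has no long open reading frame. Some act in the nucleus as scaffolds for proteins, such as Malat1 in nuclear speckles and Neat1 in paraspeckles. Others bind proteins or microRNAs in the cytoplasm, carry small nucleolar RNAs or microRNAs in their introns and exons, or sit beside a coding gene whose promoter they share. In macrophages several lincRNAs are known to be induced by inflammatory signals.

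Total counts ran from 15799351 to 17135603 per library. Trem2 itself was read at 16.6, 17.3 and 14.5 CPM (read counts scaled to a common library depth with TMM factors) in Trem2_KO and at 84.7, 90.0 and 84.2 CPM in WT, a log2 fold change of -2.42 (SE 0.0641, edgeR adjusted p = 1.60e-35). Kupffer cell markers were among the most abundant transcripts, with a sum over 10 markers of 34928 to 35411 CPM in Trem2_KO and 38425 to 39592 CPM in WT. Of them, 0 were called higher and 7 lower, and Marco, a scavenger receptor, changed by -1.11 on the log2 scale. Monocyte markers, 7 in all, held 3 called higher and 0 called lower, and their sum was 40.6 to 44.0 CPM in Trem2_KO and 19.6 to 20.6 CPM in WT. Of 12 endothelial markers 10 were called higher and 1 lower, with sums of 1965 to 1974 CPM in Trem2_KO and 1994 to 2012 CPM in WT. The lower one, Cdh5, is the most read of the 12 and weighs most in these sums. It averaged 1127 CPM in Trem2_KO and 1255 CPM in WT, while Stab2 averaged 429 and 406 CPM and Pecam1 191 and 187 CPM. The sums therefore do not show the direction of the other markers of this list. Which cells the Cdh5 reads came from was not tested, so its fall is not read as one of endothelial cells. Of 12 hepatocyte markers 1 was called higher and 5 lower, with sums of 1365 to 1389 CPM in Trem2_KO and 1600 to 1680 CPM in WT. Of 6 tested B cell markers 3 were called lower (sums 89.2 to 100 CPM in Trem2_KO and 113 to 118 CPM in WT), and of 4 tested neutrophil markers 1 was called lower (182 to 192 CPM in Trem2_KO and 192 to 209 CPM in WT, with Ly6g at 0 in every library). T and NK cell markers had 0 calls among 3 tested (7.15 to 8.26 CPM in Trem2_KO and 6.44 to 8.11 CPM in WT). Of 6 tested stellate cell markers 1 was called higher (46.8 to 50.2 CPM in Trem2_KO and 41.7 to 46.1 CPM in WT). Their median log2 fold change was -0.40, the other way from their sums, so these sums do not show the direction of the list. For comparison, 15.3% of all tested genes were called higher and 15.1% lower. The part of these cell types in the lincRNA results was not tested. In such bulk samples fewer cells of a type and less RNA per cell cannot be told apart.

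The lincRNAs as a class were expressed at low levels, with a few exceptions. The level chose them, so the following values describe them and support nothing. The median summed count was 462 reads, against 2354 for tested protein-coding genes. Per gene length, the median was 2.66 FPKM (read count scaled by gene length and library depth, as deposited), against 5.34 FPKM for tested protein-coding genes, and single lincRNAs ran from 0.309 to 291 FPKM. Of the 130, 34 lay above the coding median, 14 reached 10 FPKM and 21 stayed under 1 FPKM. Malat1 held 40.6% of all reads of the 130, and together with 2900097C17Rik, AW112010 and Neat1 it held 62.7%. Of the other lincRNA genes in the table, 4183 had no read at all. At the lower edge, Gm34084, Gm28901 and Gm29707 were just inside the summed count of 200 with 204, 201 and 200 reads, and 1700096K18Rik, 4833418N02Rik and Gm47469 were just outside it with 199, 197 and 194 reads. The spread between libraries of a group was moderate, with a median coefficient of variation of 11.4% in Trem2_KO and 11.6% in WT.

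All 130 lincRNAs passed the filter on low counts and were tested. In Trem2_KO against WT, 18 were called higher (13.8%) and 7 lower (5.38%), where 30.3% of all 13776 tested genes were called, 15.3% higher and 15.1% lower. The libraries of the groups did not overlap for 43 lincRNAs (33.1%), 26 higher and 17 lower, against 41.6% of all tested genes, and these 43 include all 25 called lincRNAs. Of the 25, 1 was at least 2-fold higher, 0 were at least 2-fold lower and 14 changed by less than 1.5-fold. The median log2 fold change of the 130 was 0.08 and that of all tested genes -0.01, and 79 of the 130 lay above 0 (60.8%, against 49.0% of all tested genes). Without WT replicate 3 the median of the lincRNAs was 0.12.

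**Figure D1:**
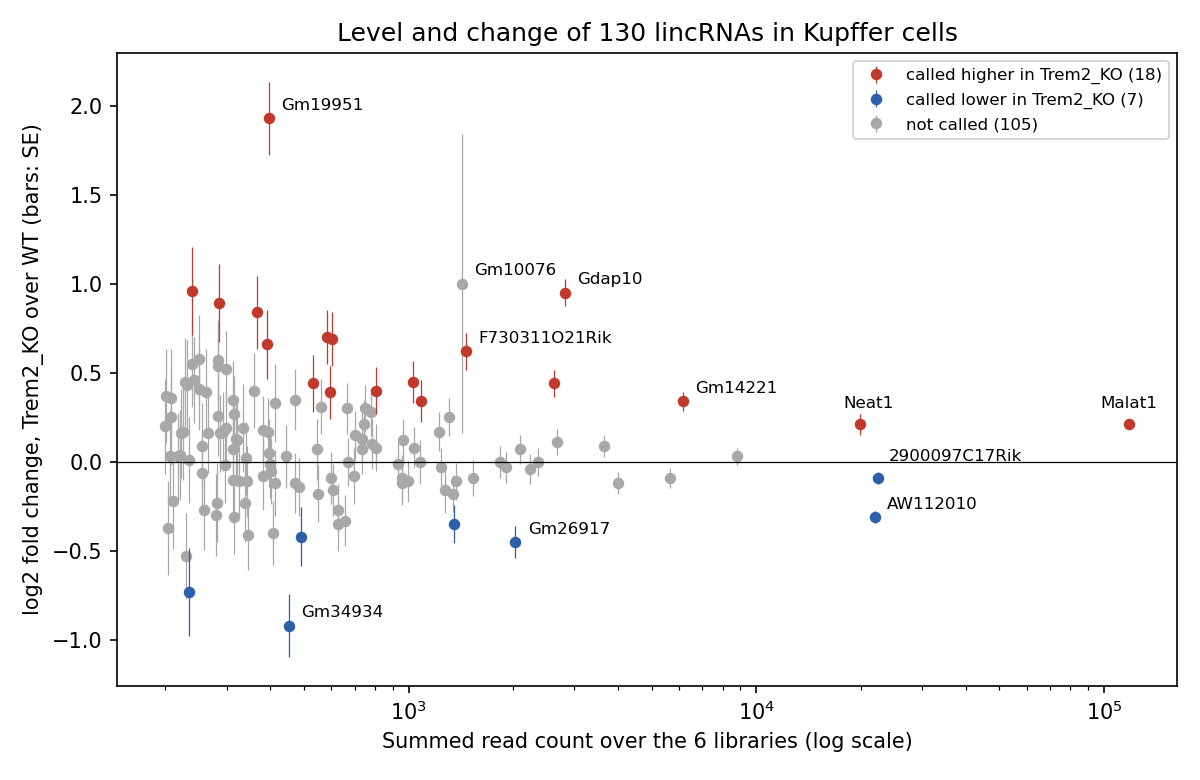
Log2 fold change of Trem2_KO over WT (vertical axis, bars are the SE of the edgeR fit) against the summed read count over the 6 libraries (horizontal axis, log scale) for the 130 lincRNAs. The 18 lincRNAs called higher (red) and the 7 called lower (blue) include the abundant Malat1 at 0.21 and the sparsely read Gm19951 at 1.93, while 105 were not called (grey).

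How often a lincRNA was called followed its read count. Among the 69 lincRNAs with 200 to 499 reads, 5 were called higher and 3 lower (11.6%), against 19.8% of 1231 protein-coding genes in the same range. Of the 29 with 500 to 999 reads, 5 were called higher and 0 lower (17.2%, against 23.1% of 1250 coding genes). Of the 32 with 1000 reads or more, 8 were called higher and 4 lower (37.5%, against 39.2% of 8157 coding genes). The median SE of the log2 fold change was 0.219 in the lowest class and 0.0879 in the highest, so a change of 0.21, that of Malat1, is about 1 SE in the lowest class. At matched read counts the shares of called lincRNAs and coding genes are given as a description, with no test of their difference.

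**Figure D2:**
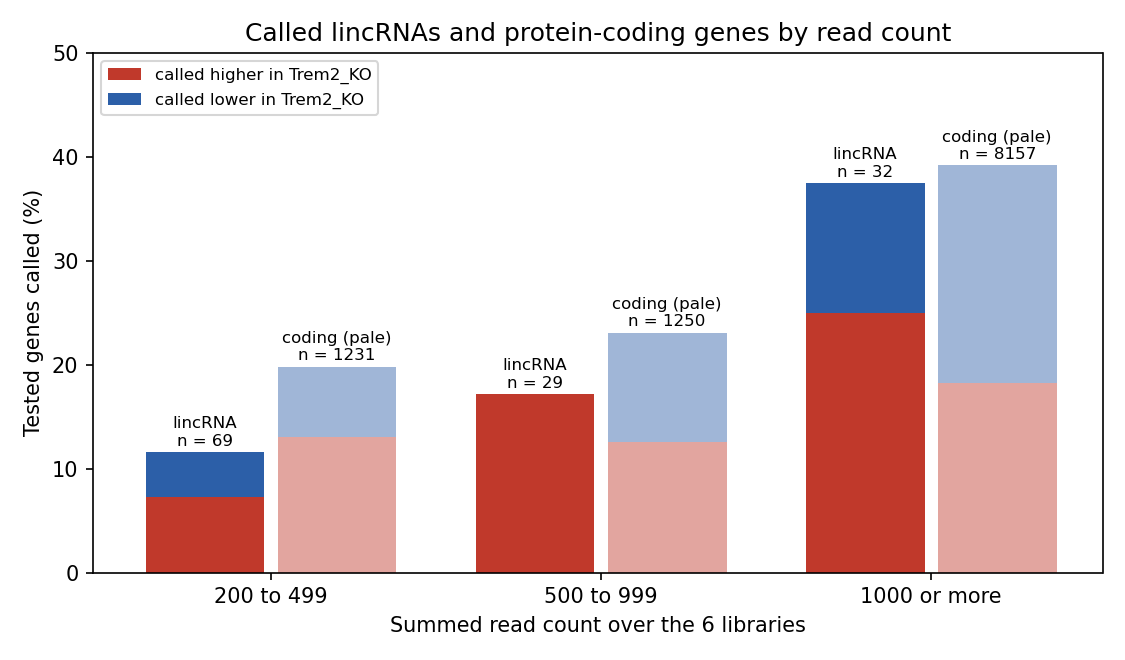
Percentage of tested genes called higher (red) and lower (blue) in Trem2_KO, by class of summed read count, for lincRNAs (left bar of each pair) and protein-coding genes (right, paler bar). In the class of 1000 reads or more, 37.5% of lincRNAs and 39.2% of coding genes were called.

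The nuclear architectural RNAs Malat1 and Neat1, which lie next to each other, were both higher in Trem2_KO. Malat1 (ENSMUSG00000092341, chromosome 19, 5795690 to 5802672, minus strand, GRCm38) is the RNA of nuclear speckles, bodies that store splicing factors. It was read at 1300, 1336 and 1249 CPM in Trem2_KO and at 1120, 1094 and 1133 CPM in WT. Each Trem2_KO library lay above each WT library, and the log2 fold change was 0.21 (SE 0.0258, edgeR adjusted p = 1.38e-09), a call that ended where every gene was given a wider spread, a biological coefficient of variation of 0.1 (adjusted p = 0.273). Neat1 (ENSMUSG00000092274, chromosome 19, 5824708 to 5845478, minus strand), the scaffold of paraspeckles, lies 22035 bases from it. It was read at 220, 229 and 203 CPM in Trem2_KO and at 198, 195 and 172 CPM in WT. The groups are apart, but the lowest Trem2_KO library and the highest WT library are close to each other. Neat1 changed by 0.21 (SE 0.0569, adjusted p = 0.0180), and its call was lost when either Trem2_KO replicate 1 (adjusted p = 0.108) or WT replicate 2 (0.0512) was left out. Frmd8, a coding gene beside the pair, was not called (log2 fold change -0.06).

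Malat1 ends in an unusual way, and its end is shown because it sets this RNA apart from messenger RNAs. Its mature end is made by RNase P and not by the usual addition of a poly(A) tail, and a pair of U-rich stretches folds with an A-rich stretch into a triple helix that protects it. The end of the mature transcript (19, minus strand, 5796077 down to 5795982) reads as DNA letters 5′ to 3′, with the T-rich and A-rich stretches in capitals.
Malat1: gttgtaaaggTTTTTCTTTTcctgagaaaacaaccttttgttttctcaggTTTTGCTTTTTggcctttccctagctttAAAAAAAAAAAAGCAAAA
The counted gene model runs 292 bases beyond this stretch, so reads of the longer precursor are counted with the mature RNA.

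Most of the difference in total lincRNA reads lay in Malat1. The 130 lincRNAs together held 0.312, 0.317 and 0.306% of all counts in Trem2_KO and 0.288, 0.278 and 0.284% in WT, so the groups were apart by 0.0288 percentage points. Malat1 alone held 0.131 ± 0.00423% in Trem2_KO and 0.110 ± 0.00231% in WT (SD, n = 3). The other 129 held 0.181 ± 0.00114% in Trem2_KO and 0.172 ± 0.00342% in WT, a difference of 0.00834 percentage points, still with no overlap between the groups.

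**Figure D3:**
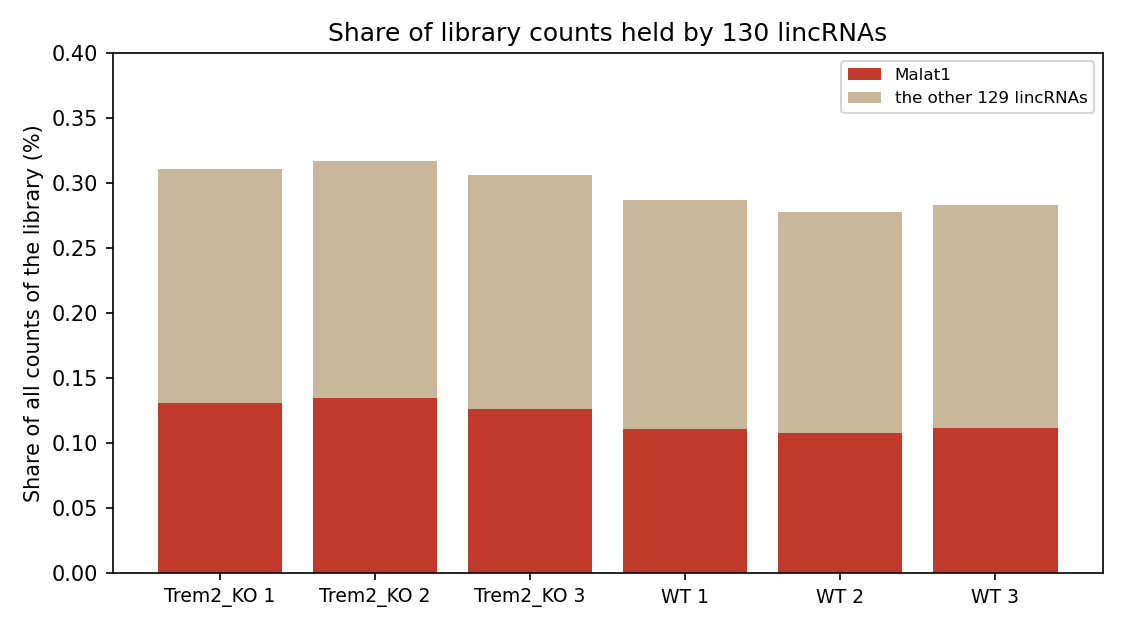
Share of all counts of each library (percent, vertical axis) held by Malat1 (red) and by the other 129 lincRNAs (tan), with the Trem2_KO libraries on the left and the WT libraries on the right. The stacks of the Trem2_KO libraries reach 0.306 to 0.317%, above the 0.278 to 0.288% of the WT libraries.

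The RNA levels of genes whose proteins reside with Malat1 and Neat1 went in both directions, and protein levels were not measured. Of all tested genes, 15.3% were called higher and 15.1% lower. Of 10 nuclear speckle protein genes 5 were called higher and 2 lower (median log2 fold change 0.09, against -0.01 for all tested genes). Srrm2, a core protein of speckles, averaged 794 ± 21.7 CPM in Trem2_KO and 593 ± 34.4 CPM in WT (SD, n = 3) and changed by 0.42, Son by 0.30 and the splicing factor Srsf5 by 0.30. The lower ones were Srsf1 at -0.16 and Srsf3 at -0.11, whose calls were lost without 1 and 3 of the libraries in turn (adjusted p up to 0.0536 and up to 0.171). Of 11 paraspeckle protein genes 0 were called higher and 2 lower (median -0.07). These were Nudt21 at -0.23, whose call was lost without 4 of the libraries in turn (adjusted p up to 0.288), and Tardbp at -0.11, whose call was lost without Trem2_KO replicate 2 (adjusted p = 0.0918). Among the paraspeckle proteins that bind Neat1 directly, Nono and Sfpq were not called (-0.07 and 0.07).

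The list of nuclear and chromatin-linked noncoding RNAs held 19 genes found in the table, of any noncoding biotype. Of the 11 that were tested, 3 were called higher and 1 lower, where 15.3% of all tested genes were called higher and 15.1% lower. Besides Malat1 and Neat1 the third was Firre, an X-linked RNA of nuclear organization that the table labels as a processed transcript and that is therefore not among the 130. It averaged 47.0 ± 2.25 CPM in Trem2_KO and 38.7 ± 0.278 CPM in WT (SD, n = 3), a log2 fold change of 0.28. Pvt1, the neighbour of the proto-oncogene Myc, was not called (0.11, SE 0.0730, adjusted p = 0.276), and neither was Myc (-0.10). Lncpint changed by 0.31 (SE 0.154, adjusted p = 0.128) with no overlap between the groups, and Ftx, of the X inactivation centre, by -0.08 (SE 0.193). Miat, Mirg and Tsix had no read in any library.

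The one member of the list that was lower acts mainly in the cytoplasm. 2900097C17Rik (ENSMUSG00000102869, chromosome 2, 156388065 to 156392979, minus strand), which RefSeq names Norad, binds the RNA-binding protein PUM2 through many copies of the motif TGTANATA. It was the second most read lincRNA, with 225, 222 and 218 CPM in Trem2_KO and 242, 232 and 237 CPM in WT. The Trem2_KO libraries all lay below the WT libraries by a narrow margin, and the log2 fold change was -0.09 (SE 0.0329, edgeR adjusted p = 0.0241). The call was lost without Trem2_KO replicate 2 (adjusted p = 0.0718), Trem2_KO replicate 3 (0.0896) or WT replicate 1 (0.116), with total counts in place of TMM (log2 fold change -0.06, adjusted p = 0.143) and with DESeq2 (adjusted p = 0.0540). Pum2 was called higher at 0.12, and its call was lost without WT replicate 2 (adjusted p = 0.131). Part of the locus is uncertain, because 2537 bases of its transcript match another lincRNA gene, Gm7292, at 99.172% identity.

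This motif is what sets the Norad sequence apart among these lincRNAs. Its transcript of 4915 bases holds 11 copies of TGTANATA on its own strand, while the next lincRNA, Neat1, holds 4 in 20771 bases and 99 of the 130 hold none. A window with 3 of the copies (2, minus strand, 156390811 down to 156390512) is shown with the motif in capitals.
2900097C17Rik: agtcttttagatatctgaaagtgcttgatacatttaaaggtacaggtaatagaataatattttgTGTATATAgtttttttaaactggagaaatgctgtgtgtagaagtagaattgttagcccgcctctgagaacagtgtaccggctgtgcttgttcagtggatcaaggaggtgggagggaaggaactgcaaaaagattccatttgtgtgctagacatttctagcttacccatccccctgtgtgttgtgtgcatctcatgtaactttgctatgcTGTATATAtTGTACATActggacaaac

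AW112010, an RNA that is induced by bacterial and interferon signals in mouse macrophages and from which a short protein has been reported, was lower in Trem2_KO. AW112010 (ENSMUSG00000075010, chromosome 19, 11047617 to 11050566, minus strand) had the highest level per length of the 130, 291 FPKM averaged over all libraries. It was read at 199, 201 and 201 CPM in Trem2_KO and at 251, 249 and 248 CPM in WT. The libraries of each group lay within a few CPM of each other and the groups were far apart, with a log2 fold change of -0.31 (SE 0.0325, adjusted p = 1.88e-11). The call was kept without each library in turn (adjusted p at most 2.70e-08) and lost with the coefficient of variation of 0.1 (adjusted p = 0.0693). The next coding gene, Ms4a8a, lies 16905 bases away and went the other way (0.13, SE 0.0395, adjusted p = 0.00758), a call also lost with that coefficient (adjusted p = 0.574).

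Other immune-linked lincRNAs were low or absent. Of 11 table entries of that list, 2 were tested, with 0 called higher and 1, AW112010, lower, where 15.1% of all tested genes were called lower. Gm14005, named Morrbid in RefSeq and known for limiting the expression of the pro-apoptotic gene Bcl2l11 in mouse myeloid cells, averaged 5.97 ± 0.740 CPM in Trem2_KO and 7.51 ± 0.358 CPM in WT (SD, n = 3). Its groups did not overlap, but it was not called (-0.33, SE 0.143, adjusted p = 0.0721) except without Trem2_KO replicate 2 (-0.43, adjusted p = 0.0441), and Bcl2l11 at 15772 bases was not called either (-0.01). AI427809, named Mexis in RefSeq and known from mouse macrophages as an amplifier of LXR-driven expression of the cholesterol exporter Abca1, was not called (0.03, SE 0.175, adjusted p = 0.923). Abca1, 101461 bases away, was called higher (0.21, SE 0.0268, adjusted p = 8.39e-09), a call lost with the coefficient of variation of 0.1 (adjusted p = 0.292). The difference between both genes was not tested.

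The largest change of all 130 was that of Gm19951, a transcript with no assigned function (ENSMUSG00000113136, chromosome 12, 99643093 to 99647221, plus strand). It was read at 7.10, 5.09 and 6.58 CPM in Trem2_KO and at 1.53, 1.53 and 1.85 CPM in WT. The lowest Trem2_KO library was well above the highest WT library, and the log2 fold change was 1.93 (SE 0.205, adjusted p = 4.31e-11), or 3.81-fold. The call was kept without each library in turn and with the biological coefficient of variation of every gene set to 0.2 (adjusted p = 1.52e-08). Its nearest coding gene, Efcab11, ends 45824 bases away and was too low to be tested.

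The promoter of Gm19951 is shown as that of the most changed lincRNA (12, plus strand, 99642846 to 99643145, GRCm38.p6). Capitals mark a match on the other strand to GAGGAAGT, the letters searched on both strands for PU.1, a transcription factor of the macrophage lineage.
Gm19951: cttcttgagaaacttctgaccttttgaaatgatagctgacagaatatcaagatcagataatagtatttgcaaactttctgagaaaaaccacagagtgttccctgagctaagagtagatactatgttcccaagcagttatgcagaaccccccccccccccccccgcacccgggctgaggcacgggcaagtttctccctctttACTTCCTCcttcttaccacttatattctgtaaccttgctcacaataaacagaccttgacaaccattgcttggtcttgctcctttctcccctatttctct
These letters are in 3.20% of all 32851 promoter windows and in 6 of the 60 lincRNA promoters, among them 2 of the 9 promoters of called lincRNAs, Gm19951 and F730311O21Rik. The share is a description of letters only, with no test.

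Gdap10 combined a high read count with a large change. It lies inside the gene body of Nampt on the same strand (ENSMUSG00000096954, chromosome 12, 32821872 to 32826904, plus strand), and Nampt encodes the rate-limiting enzyme of NAD salvage. Gdap10 was read at 40.2, 39.2 and 33.1 CPM in Trem2_KO and at 18.6, 18.8 and 20.7 CPM in WT. The groups are far apart, and the log2 fold change was 0.95 (SE 0.0770, adjusted p = 5.21e-15), or 1.93-fold. Nampt was higher too, at 323 ± 0.974 CPM in Trem2_KO and 268 ± 13 CPM in WT (SD, n = 3), by 0.27 (SE 0.0324, adjusted p = 1.25e-09), a call lost with the coefficient of variation of 0.1 (adjusted p = 0.136). Reads of unspliced Nampt RNA and of Gdap10 cannot be told apart where the gene bodies overlap on the same strand. Gdap10 kept its call without each library in turn and with the coefficient of variation fixed at 0.2 (adjusted p = 0.00595).

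**Figure D4:**
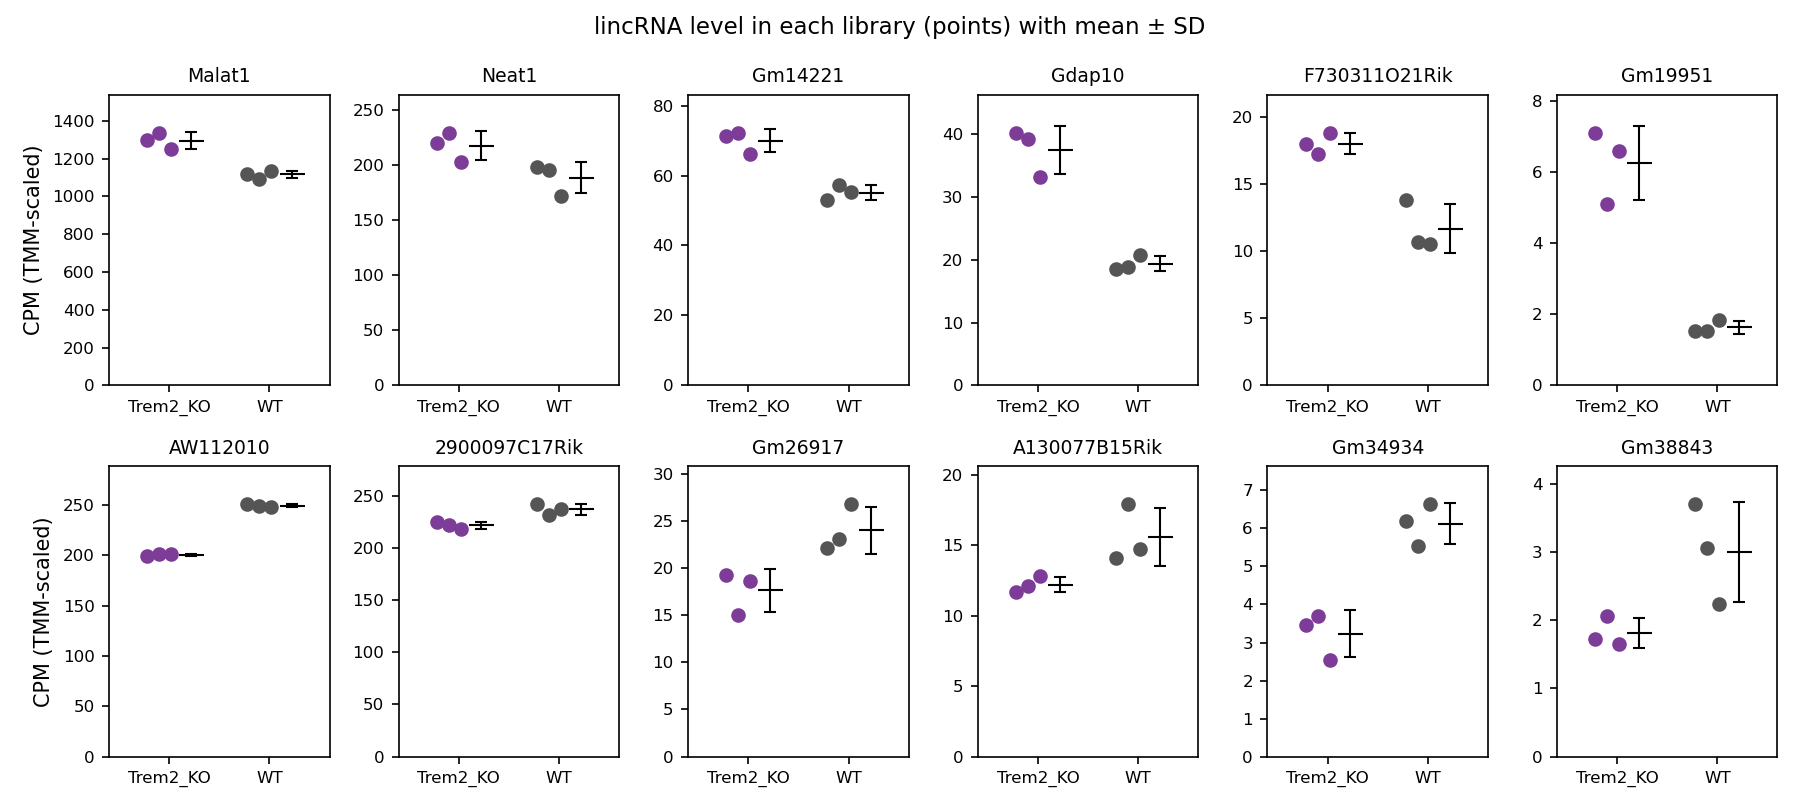
Level in each library (points, TMM-scaled CPM, axes start at 0) with mean ± SD for 12 called lincRNAs, Trem2_KO on the left and WT on the right of each panel. The upper row shows 6 lincRNAs called higher and the lower row 6 called lower, with no overlap between the groups in any panel.

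Other rises were spread over the genome. Gm14221, an antisense-oriented neighbour of the topoisomerase gene Top1 at 25917 bases, was read at 71.4, 72.2 and 66.2 CPM in Trem2_KO and at 52.9, 57.2 and 55.2 CPM in WT (0.34, SE 0.0525, adjusted p = 4.99e-07). F730311O21Rik had 18.0, 17.2 and 18.8 CPM in Trem2_KO and 13.8, 10.7 and 10.5 CPM in WT (0.62, SE 0.104, adjusted p = 3.01e-06). Both were apart between the groups and kept their calls without each library in turn, while Top1 (0.05) and Tmcc2 (0.19), their neighbours, were not called. Gm42047 changed by 0.44 (SE 0.0741, adjusted p = 4.22e-06), but parts of its transcript match 8 other genes. The longest match is 3209 bases with the lincRNA gene Gm48362 at 98.38% identity. The remaining rises had fewer reads, with log2 fold changes of 0.96 for AC130815.2, 0.89 for Gm26880, 0.84 for Gm26767, 0.70 for Gm17275, 0.69 for Gm21781 and 0.45 for Gm39822, each of which kept its call without each library in turn. Gm26880 lies among repeated zinc finger genes, and parts of its transcript match 7 other genes. The longest match covers 811 of its 1318 bases at 95.931% identity. AI480526 rose by 0.44, and its call was lost without any 1 of 5 libraries, all but Trem2_KO replicate 1 (adjusted p up to 0.142). A530017D24Rik (0.34) and Gm26857 (0.39), both named after their values were seen, lost their calls without 4 and 5 of the libraries in turn (adjusted p up to 0.121 and 0.173), among them Trem2_KO replicates 1 and 3 and WT replicates 1 and 3 for both and Trem2_KO replicate 2 for Gm26857.

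Besides AW112010 and 2900097C17Rik, 5 lincRNAs were lower in Trem2_KO. Gm34934 fell most (ENSMUSG00000115100, chromosome 14, 46866576 to 46882757, minus strand), with 3.46, 3.70 and 2.53 CPM in Trem2_KO and 6.19, 5.55 and 6.64 CPM in WT. The groups did not overlap, and the log2 fold change was -0.92 (SE 0.176, adjusted p = 3.58e-05), also called with the coefficient of variation fixed at 0.2 (adjusted p = 0.0319). A130077B15Rik had 11.7, 12.1 and 12.8 CPM in Trem2_KO and 14.1, 17.9 and 14.7 CPM in WT (-0.35, SE 0.105, adjusted p = 0.00770), and its call was lost without WT replicate 2, its highest library (-0.24, adjusted p = 0.127). Parts of the A130077B15Rik transcript match 15 other genes, the longest over 422 bases at 96.445% identity. Gm38843 (-0.73, SE 0.247, adjusted p = 0.0205) and Gm49101 (-0.42, SE 0.165, adjusted p = 0.0471) lost their calls without Trem2_KO replicate 1 and WT replicate 1, Gm38843 also without Trem2_KO replicate 3 and WT replicate 2 and Gm49101 also without Trem2_KO replicate 2 (adjusted p up to 0.158 and 0.248). Without WT replicate 1 the number of lincRNAs called lower was 4.

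Gm34934 and the coding gene Samd4 start 97 bases apart on opposite strands, and Samd4 encodes a repressor of mRNA translation of the Smaug family. Samd4 averaged 43.1 ± 0.750 CPM in Trem2_KO and 47.1 ± 3.65 CPM in WT (SD, n = 3) and was not called (-0.13, SE 0.0599, adjusted p = 0.101). The difference between the changes of Gm34934 and Samd4 was not tested. The stretch from the start of Samd4 to the first bases of Gm34934 is shown on the strand of Gm34934 (14, 46882853 down to 46882750), with a GC box, GGGCGG searched on both strands, in capitals.
Gm34934: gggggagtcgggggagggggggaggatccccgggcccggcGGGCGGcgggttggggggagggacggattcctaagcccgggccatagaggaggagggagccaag
G and C make up 76.0% of this stretch, and the GC box is in 35.7% of all promoter windows and in 15 of the 60 lincRNA promoters (25.0%).

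The fifth, Gm26917, belongs to the loci that collect reads of ribosomal RNA. Gm26917 (ENSMUSG00000097971, chromosome 17, 39843013 to 39846341, plus strand) was read at 19.3, 15 and 18.6 CPM in Trem2_KO and at 22.1, 23.1 and 26.8 CPM in WT (-0.45, SE 0.0911, adjusted p = 0.000124). All Trem2_KO libraries lay below the WT libraries. The other tested locus of that list, Gm23935, which the table labels as a microRNA, was lower as well, at 206 ± 33.4 CPM in Trem2_KO and 395 ± 84.8 CPM in WT (-0.94, SE 0.227, adjusted p = 0.0443), and its call was lost without each library but WT replicate 3 (adjusted p up to 0.128). Of 4 table entries on the list 2 were tested, both called lower, where 15.1% of all tested genes were called lower. Gm42418 and AY036118 had no read in any library. The part of leftover ribosomal RNA in the change of Gm26917 was not tested. Gm26917 also lies 8.50 Mb from Trem2. Of the 8 lincRNAs on chromosome 17, 1 other is within 20 Mb of Trem2, Gm17705 at 13.2 Mb, and it was not called (0.30, SE 0.145, adjusted p = 0.114) except without WT replicate 1 (0.45, adjusted p = 0.0325).

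Each lincRNA was set beside its coding neighbour. The neighbour is the protein-coding gene with the smallest gap between gene bodies on either strand, with a median gap of 3574 bases. Of the 25 called lincRNAs, 4 had a neighbour called in the same direction, 3 one called in the opposite direction, 13 one that was not called and 5 one too low to be tested. Of all 12004 tested protein-coding genes 32.5% were called, 16.1% higher and 16.4% lower, a share close to that among the neighbours of called lincRNAs. Of the 111 tested neighbours of all 130 lincRNAs 28 were called higher and 18 lower. Higher calls were thus more frequent among these neighbours than the 16.1% of all tested coding genes, a difference that was not tested. Of the 105 lincRNAs that were not called, 39 had a called neighbour. Over the 111 pairs Pearson's r of the log2 fold changes was 0.12 and Spearman's rho 0.13, a description across genes that share the same 6 libraries.

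The pairs that were called in the same direction were all higher. Besides Gdap10 with Nampt they were Gm39822 with Jade2, Gm26767 with Slc25a36 and A530017D24Rik with Akap10. Gm39822 had 11.7, 13 and 11.5 CPM in Trem2_KO and 9.12, 9.19 and 8.17 CPM in WT (0.45, SE 0.117), and Jade2, a subunit of a histone acetyltransferase complex, 41313 bases away in head-to-head orientation, changed by 0.44 (SE 0.0333, adjusted p = 3.20e-16). Gm26767 ends 1532 bases from the end of Slc25a36, a mitochondrial nucleotide carrier (0.14, SE 0.0426, adjusted p = 0.00728), whose call was lost when either Trem2_KO replicate 3 or WT replicate 2 was left out (adjusted p up to 0.0892). Akap10, an anchor of protein kinase A, changed by 0.23 (SE 0.0462, adjusted p = 6.07e-05). With the coefficient of variation of 0.1 Jade2 kept its call (adjusted p = 0.00393), while those of Slc25a36 (0.532) and Akap10 (0.240) were lost. Without Trem2_KO replicate 3 the number of such pairs was 2, and with the neighbour taken by distance between gene starts, or as the nearest gene that passed the filter, it was 7.

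The opposite pairs were 2900097C17Rik with Cnbd2, AW112010 with Ms4a8a and Gm17275 with H3f3a. Cnbd2, 12427 bases from 2900097C17Rik with the ends facing each other, was read at 68.4 ± 3.48 CPM in Trem2_KO and 43.5 ± 3.09 CPM in WT (SD, n = 3) and changed by 0.65 (SE 0.0566, adjusted p = 5.62e-14). Gm17275 overlaps exons of H3f3a, a gene of histone H3.3, on the other strand, so reads of both cannot be told apart without the strand setting. It was read at 7.45, 7.58 and 6.87 CPM in Trem2_KO and at 4.15, 4.98 and 4.34 CPM in WT (0.70, SE 0.152, adjusted p = 0.000243). In addition, 489 bases of the Gm17275 transcript match the gene Gm2099 at 96.933% identity. H3f3a changed by -0.12 (SE 0.0383, adjusted p = 0.0149), a call that was lost without Trem2_KO replicate 1 or 2 and without WT replicate 1 or 3 (adjusted p up to 0.123). Gm26857 overlaps exons of the Src-family kinase gene Lyn, which had 756 ± 4.95 CPM in Trem2_KO and 751 ± 13.2 CPM in WT and was not called (0.01).

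**Figure D5:**
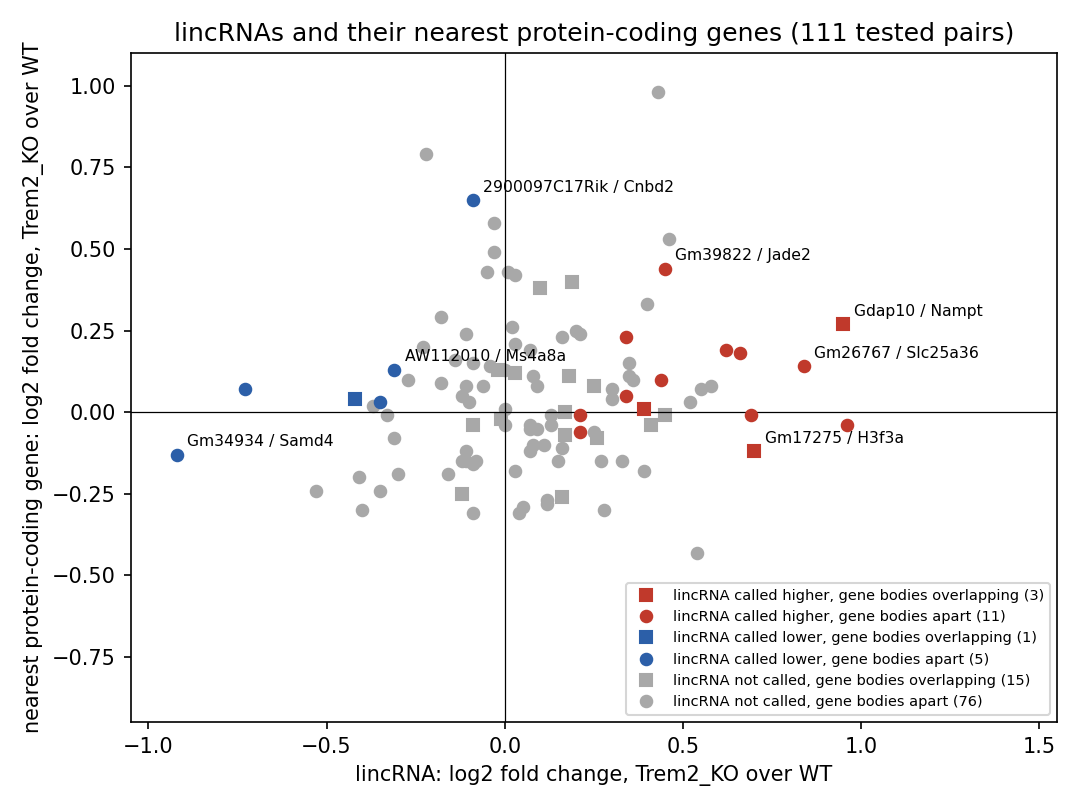
Log2 fold change of Trem2_KO over WT of each lincRNA (horizontal axis) and of its nearest protein-coding gene (vertical axis) for the 111 pairs in which both were tested. Red and blue points are lincRNAs called higher and lower, grey ones were not called, squares mark gene bodies that overlap, and Gdap10 with Nampt and Gm39822 with Jade2 stand in the upper right.

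By orientation, 30 lincRNAs lay head to head with their neighbour, 26 tail to tail, 28 downstream of it on the same strand, 22 upstream of it on the same strand, 18 overlapped it on the opposite strand and 6 on the same strand. Calls were found in each arrangement, with 4 higher and 2 lower of the 30 head-to-head lincRNAs and 6 higher and 1 lower of the 26 tail-to-tail ones. Of the lincRNAs in all arrangements together, 13.8% were called higher and 5.38% lower, where 15.3% of all tested genes were called higher and 15.1% lower. The counts by orientation and distance are small and are given as a description, with no test. Of the 15 head-to-head lincRNAs whose start lies within 1000 bases of the neighbour's start, 1 was called higher and 1 lower. Of the 19 lincRNAs more than 50000 bases from any coding gene, 0 were called higher and 2 lower.

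Of 14 tested host genes of small nucleolar RNAs, of any biotype, 2 were called higher and 0 lower (median 0.03), where 15.3% of all tested genes were called higher and 15.1% lower. Among the lincRNAs, Epb41l4aos had 8.72, 10.4 and 8.81 CPM in Trem2_KO and 7.01, 7.60 and 6.57 CPM in WT (0.40, SE 0.131, adjusted p = 0.0173), a call lost when either Trem2_KO replicate 2 or WT replicate 3 was left out (adjusted p up to 0.122). The other was Zfas1, a processed transcript in the table (0.43, SE 0.0940, adjusted p = 0.000303). Snhg12 (-0.11, SE 0.117), Snhg20 (-0.12, SE 0.124) and Snhg6 (0.10, SE 0.140) were not called. Of 5 tested microRNA host genes 0 were called at an adjusted p under 0.05, among them Mir142hg (-0.08, SE 0.155) and Ftx. H19, Mir124a-1hg, Mir155hg and Mirg had no read in any library.

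Counts of a host RNA do not measure the mature microRNA. Among the 130, 6 lincRNAs hold an annotated microRNA on their own strand, and those of Mir142hg are shown because miR-142 is a microRNA of blood cells and macrophages. The mature sequences come from RefSeq (GRCm38.p6) with the seed, bases 2 to 8, in capitals.
mmu-miR-142a-5p: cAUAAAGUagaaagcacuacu
mmu-miR-142a-3p: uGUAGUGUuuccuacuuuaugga
Gm26532 (chromosome 8, 84208920 to 84209609, plus strand) lies downstream of the cluster of miR-23a, miR-27a and miR-24-2 and overlaps the hairpin of the last. It was read at 3.69, 5.94 and 4.99 CPM in Trem2_KO and at 3.32, 2.75 and 3.19 CPM in WT. The groups did not overlap, and it was called higher (0.66, SE 0.194, adjusted p = 0.00703), a call lost without Trem2_KO replicate 2, its highest library (adjusted p = 0.0985). The cluster's main mature microRNAs have different seeds.
mmu-miR-23a-3p: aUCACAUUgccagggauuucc
mmu-miR-27a-3p: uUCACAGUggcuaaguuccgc
mmu-miR-24-3p: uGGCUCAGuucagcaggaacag

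The fifth most read lincRNA, 1700020I14Rik, which RefSeq names Oip5os1 and which is also called Cyrano, is known to pair with miR-7 and to trigger the decay of that microRNA. Its change was within its error (0.03, SE 0.0502, adjusted p = 0.728). Its transcript of 8300 bases holds 2 matches to the seed of miR-7a-5p, and 1 of them is the extended site, in which a run of 13 bases and a run of 8 bases can pair with the microRNA around 4 bases that do not. The site (bases 2935 to 2959 of the transcript, pairing bases in capitals) is shown with the microRNA (seed in capitals).
1700020I14Rik: ACAACAAAATCACcaatGTCTTCCA
mmu-miR-7a-5p: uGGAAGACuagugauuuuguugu
The other abundant lincRNAs that were not called were Tmem250-ps (-0.09, SE 0.0547), AU020206 (-0.12, SE 0.0606) and Gm37494 (0.09, SE 0.0619). The groups did not overlap for AU020206 and Gm37494. RefSeq lists Tmem250-ps, and Gm37494 under the symbol Gm33989, as protein-coding.

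RefSeq does not list every gene of the biotype as a noncoding RNA. Of the 130, 82 were matched to a RefSeq gene, 8 of them under another symbol, and RefSeq lists 72 of these as lncRNA, 8 as protein-coding and 2 as pseudogenes. Gm10076 (ENSMUSG00000060143, chromosome 14, 105681828 to 105682211, plus strand), named after its values were seen, is a RefSeq pseudogene, and 383 of its 384 bases match transcripts of the ribosomal protein gene Rpl41 at 99.478% identity. A stretch of 78 bases equal to the Rpl41 coding sequence (14, plus strand, 105681869 to 105681946) is shown with its first and last codon in capitals.
Gm10076: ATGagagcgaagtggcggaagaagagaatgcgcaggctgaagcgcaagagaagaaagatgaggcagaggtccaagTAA
Gm10076 varied more between libraries of a group than any other of the 130, at 24.7, 5.82 and 26.6 CPM in Trem2_KO and 17.2, 3.32 and 8.11 CPM in WT. The groups overlap, with the second replicate low in both. Its log2 fold change of 1.00, the second largest of the 130, has an SE of 0.839 and was not called (adjusted p = 0.463), and the sources used here do not say how reads that fit both genes were counted.

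Called and uncalled lincRNAs were also set side by side by length, base composition and structure. The median gene length, as given in the count table, was 3912 bases for those called higher, 2547 for those called lower and 2291 for those not called. The median GC content of the longest transcript was 48.1%, 45.5% and 47.3% in the same order. The median summed count was 704 reads for those called higher, 1352 for those called lower and 400 for those not called. None of these differences was tested. In GENCODE M21, 13 of the 130 have a single exon, 2 of them called higher and 1 called lower. A coding gene body is overlapped by 24 of the 130, 5 of them called higher and 1 called lower. These counts are small and stand beside 13.8% called higher and 5.38% called lower of all 130. Of all tested genes, 15.3% were called higher and 15.1% lower. Exons of another gene, coding or not, are overlapped by 46, whose reads cannot be told apart from those of the other gene where it lies on the opposite strand and the strand setting is not known.

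The calls differed in how firmly they held. Of the 25, 15 kept the call without each library in turn, 12 higher and 3 lower, and 18 were also called by DESeq2, 14 higher and 4 lower. Set to 0.1 for every gene in place of the estimated 0.0378, the biological coefficient of variation left 12 of the higher and 3 of the lower ones called, where 6.81% of all tested genes were called higher and 3.99% lower. The calls lost at 0.1 included those of the 4 most read lincRNAs, Malat1 (adjusted p = 0.273), 2900097C17Rik (0.716), AW112010 (0.0693) and Neat1 (0.309). Set to 0.2, it left 3 of the 25 called, Gm19951, Gdap10 and Gm34934, where 2.69% of all tested genes were called, 1.95% higher and 0.748% lower. At both settings Gm10076 was called as well (adjusted p = 3.28e-10 and 0.00483), since a fixed coefficient leaves out its wide spread between libraries. DESeq2 called 22.5% of all tested genes, 11.8% higher and 10.7% lower.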

How the data were processed

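The deposited table holds, per the file headers, read counts per gene and FPKM values for the 6 libraries with gene names, biotypes, positions and lengths. Per the submitters' processing notes, the authors used HISAT2 2.0.5, counted with featureCounts 1.5.0-p3 and also used DESeq2 1.16.1, on GRCm38 (mm10). How strand and reads of several genes were handled, and how the authors' FPKM values were normalized, is not stated in the sources used here. Libraries were made from sorted cells with an Illumina TruSeq RNA kit, per the labels' protocols. Groups and replicate numbers come from the sample titles.

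The quasi-likelihood test of edgeR 4.0.16 (R 4.3.3) was run on the deposited counts with genotype as its one term, after filterByExpr and TMM scaling, and 13776 genes passed the filter. Calls rest on p-values adjusted by Benjamini and Hochberg's method over all of these, with a threshold of 0.05. The SE of a log2 fold change is the one implied by the F statistic. CPM are TMM-scaled, and a gene with no read in a library may still lie below 3 counts there, or 0.173 to 0.192 CPM, a limit that covers counting error only. On counts simulated for these 13776 genes with 200 changed genes (3 draws), the test recovered 63.7% of genes changed 1.5-fold and 85.7% of those changed 2-fold, and 7.4% of calls were false. These rates do not carry over to the lincRNAs. Far more genes, 4181, were called in the data than were changed in the simulation. The changed genes were drawn from all tested genes, and the median lincRNA had 462 reads against 2354 for coding genes. Alternatives were DESeq2 1.42.0, other scalings, filters and spreads, the replicate number as a block, leaving out each library, and other rules for lincRNAs and neighbours. Leaving Malat1 out of the share of counts was added after the data were seen.

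The lincRNAs, the gene lists, the tests and the rule for named genes were chosen with earlier results of these data known. Named are Trem2, the 10 lincRNAs with the most reads, the 12 largest rises and falls among called lincRNAs with no overlap between groups, the noncoding RNA lists, lincRNAs near Trem2 and at the threshold, and their coding neighbours; of protein lists, members with the smallest p. AI427809, Nono, Sfpq and others marked so were named after their values were seen.

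All 130 gene identifiers were found in GENCODE M21, 128 with the same coordinates. Copies were searched with BLAST 2.17.0 (at least 200 bases at 95% identity) and found for 16 lincRNAs. Promoters and microRNAs are from RefSeq (GRCm38.p6), and 60 of the 130 had a promoter.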

Additional observations from a re-analysis of the deposited data

How the results depend on the processing

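With 0.2 as the biological coefficient of variation of every gene, 3 lincRNAs were called higher and 1 lower, and at 0.1 there were 3 called lower. DESeq2 called 4 lower, and 4 were lower among lincRNAs with a summed count of 500 or more. Leaving out each library gave 15 to 19 called higher and 4 to 8 called lower. The median log2 fold change of the lincRNAs was 0.11 with total counts, which moved the median of all tested genes to 0.03, 0.11 with a summed count of 100 or more, and 0.06 to 0.12 without each library in turn. Neighbours called in the same direction numbered 1 and 0 with the coefficient fixed at 0.1 and 0.2, 7 by distance between gene starts, 7 among genes that passed the filter, 1 with gaps above 5000 bases, and 2 to 5 without each library in turn. The difference in the share of counts was 0.0262 to 0.0315 percentage points without each library in turn and 0.00834 with Malat1 left out. With the replicate number as a block, 19 were called higher and 7 lower; same-numbered libraries did not deviate together (correlations -0.00787, 0.00313 and 0.03609), so the numbers were not taken to pair mice. No called direction reversed among the named lincRNAs under these alternatives. Of those not called, 1700020I14Rik (-0.03 to 0.08), Ftx (-0.21 to 0.11), Gm29707 (-0.01 to 0.34), Mir142hg (-0.24 to 0.17) and Snhg6 (-0.04 to 0.24) took log2 fold changes of both signs. Of the comparisons of the 39 lincRNAs named by the rule, 524 kept their side of the threshold, 59 fell short of it and 2 passed it newly. Gm10076, named after its values were seen, is not among these 39.

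Read depth is 1 limit: with 200 to 499 reads the median SE was 0.219 on the log2 scale. Lists were described by counts, with no test of a list.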
